A study of Mus musculus with 4 samples.

Results

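The 9 complement genes C1qa, C1qb, C1qc, C3, C4b, Cfb, C3ar1, C5ar1 and Serping1 were followed through CD45+ immune cells of the injured mouse brain. They were picked by symbol, and each had its own row among the 32285 genes of the matrices, so 9 of 9 were measured. The cells came from C57B6/J mice with cortical brain injury, and no uninjured group was part of the comparison. On the side of the injury, thalamus and hippocampus (HPC) were dissected, and live cells carrying CD45, a surface protein of leukocytes and microglia, were sorted. For either region, 4 mice gave equal cell numbers to a single pooled droplet library. Of the 4 matrices deposited per region, each was treated as a set of cells that 1 mouse gave, although no label says so. Region and library therefore cannot be told apart in any comparison.

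Complement is a cascade of proteins that tag targets for uptake or destruction. In the classical pathway, C1q binds a target and its proteases cleave C4 and C2, while factor B belongs to the alternative pathway. Both routes cleave C3, and the fragments of C3 and C5 act on cells through the receptors C3aR1 and C5aR1. Microglia are the chief source of C1q in the brain, and C1q and C3 are known for tagging synapses that microglia remove.

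After filtering, 24939 cells with 119958441 unique molecular identifiers (UMIs, each a counted RNA molecule) were kept. The sets held 2072 to 5389 cells with a median of 4261.5 to 4657 UMIs per cell. Clustering without the 9 genes among its features gave 18721 microglia-like, 542 macrophage- or monocyte-like, 344 dendritic-like, 1011 neutrophil-like and 3403 T- or NK-like cells. Among microglia-like cells, 9349 were homeostatic-like and 2770 were DAM-like (disease-associated microglia, marked by genes such as Cst7, Lpl and Spp1). HPC set 1 stood apart from the other sets. Homeostatic-like cells made up 12.1% of its microglia-like cells, against 66.3% to 86.6% in HPC sets 2 to 4 and 20.98% to 63.3% in the thalamus sets. DAM-like cells made up 19.98% to 34.1% in the thalamus sets, 9.54% in HPC set 1 and 2.83% to 4.96% in the other HPC sets. Between the regions, 65 cell barcodes were shared, and 0 were shared within a region. Levels are given as UMIs of a gene per 10000 UMIs of all genes in the pooled cells of a set. A 3′ protocol counts a molecule once whatever its length, so these levels were not divided by transcript length. A lower level can mean fewer expressing cells or less RNA in each, and a summed level does not tell these apart.

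C1q genes were among the most abundant transcripts of microglia-like cells. C1qa, C1qb and C1qc encode the 3 chains of C1q and lie next to each other on the minus strand of chromosome 4 (GRCm38). C1qb spans 136880129 to 136886187, C1qc spans 136889804 to 136893065 and C1qa spans 136895917 to 136898803. The gaps between them are 3616 and 2851 bases. Promoter sequences from RefSeq (GRCm38.p6) matched 5 of the 9 genes: C1qb, C1qc, C3, C3ar1 and C5ar1. The stretches before C1qb and C1qc are shown because over the microglial clusters and sets these genes correlated most closely of all pairs of members. Each is read 5′ to 3′ and lies before the annotated start, and capitals mark the ETS core GGAAGT or its reverse complement ACTTCC.
C1qb, chr4:136886201-136886450, minus strand: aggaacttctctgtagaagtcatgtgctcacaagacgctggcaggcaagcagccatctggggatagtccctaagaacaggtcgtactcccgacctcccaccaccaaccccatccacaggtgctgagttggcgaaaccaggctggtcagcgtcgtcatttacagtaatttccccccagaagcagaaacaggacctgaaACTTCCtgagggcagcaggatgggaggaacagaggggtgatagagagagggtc
C1qc, chr4:136893066-136893164, minus strand: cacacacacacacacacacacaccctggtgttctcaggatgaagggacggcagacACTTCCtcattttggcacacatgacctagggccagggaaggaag
Both held the motif once, on the reverse strand. Searched on both strands over the 250 bases before the start, GGAAGT occurred in 19.7% of all 32851 promoters, and it occurred 2 times before C5ar1. A match of letters is a description and not a binding site.

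Over the 8 sets, C1qa averaged 89.7 UMIs per 10000 in microglia-like cells (SD 13.7, n = 8), C1qb 67.3 and C1qc 49.4. They ranked 4th, 6th and 10th among the 22730 genes with a UMI in these cells. The 3 genes together took 2.06% of all microglial UMIs (SD 0.268, n = 8). Of the C1q UMIs in microglia-like cells, 43.4% were C1qa, 32.6% C1qb and 24.0% C1qc.

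C1q was also counted in every other cell class. C1qa averaged 37.2 in macrophage- or monocyte-like cells (SD 7.74, n = 7), 14.2 in T- or NK-like cells (SD 4.09, n = 8), 11.1 in neutrophil-like cells (n = 6) and 6.36 in dendritic-like cells (n = 5). The microglial and macrophage ranges overlapped neither each other nor the ranges of the classes below, whereas the T- or NK-like, neutrophil-like and dendritic-like ranges overlapped. T cells are not known to make C1q, so the T- or NK-like level is given beside each member as a measure of free RNA in the droplets. It amounted to 9.40% to 26.6% of the microglial C1qa level of the same set. Much of it came from cluster 9 of all cells, 727 cells led by Gzma, Nkg7 and Xcl1, with 31.6 C1qa UMIs per 10000 (SD 5.38, n = 7). In the other 2676 T- or NK-like cells the level was 5.06 (SD 1.64, n = 8), or 2.74% to 10.3% of the microglial level. The median doublet score of cluster 9 was 0.0647, against 0.0187 to 0.0268 in the other T- or NK-like clusters, and its part in the C1qa level was not tested. The proportions of the 3 chains in T- or NK-like cells, 43.4%, 33.2% and 23.4%, were nearly those of microglia-like cells. In macrophage- or monocyte-like cells they were 41.0%, 37.5% and 21.5%. Of all C1qa UMIs, 94.6% lay in microglia-like cells.

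**Figure D1:**
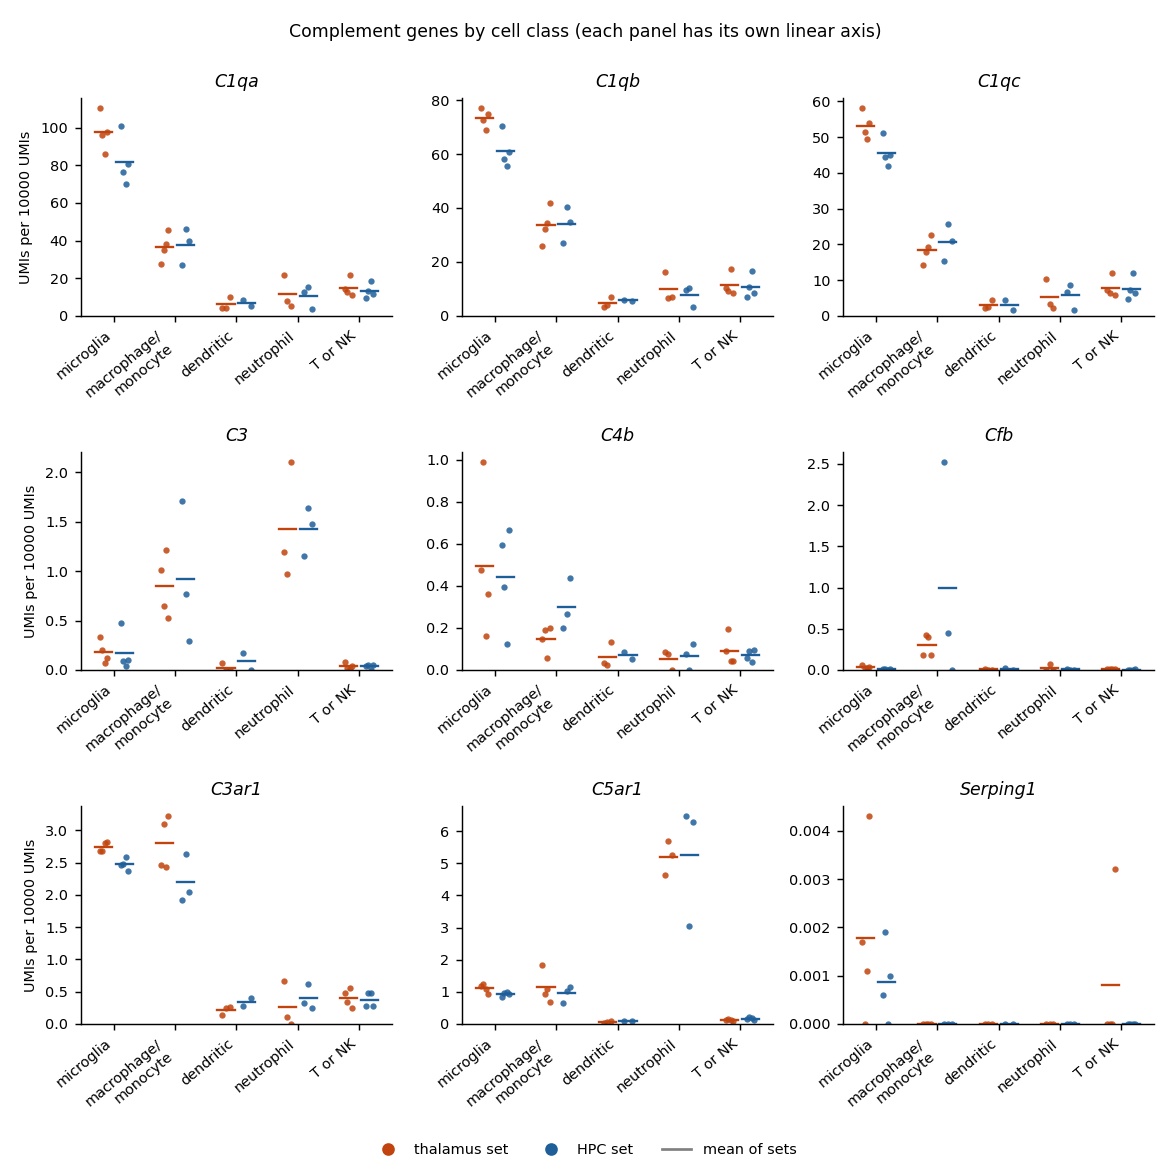
Levels of the 9 genes (UMIs per 10000 UMIs, linear axis of its own in each panel) in 5 cell classes. Points are sets with at least 20 cells of the class, in orange for the thalamus and blue for the HPC, and lines are the means of the sets. C1q genes were highest in microglia-like cells, C3 and C5ar1 in neutrophil-like cells and Cfb in macrophage- or monocyte-like cells, with HPC set 1 far above the others for Cfb.

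Within microglia, C1q was on average lowest in homeostatic-like and higher in DAM-like cells, although 1 homeostatic-like cluster lay near a DAM-like cluster. In homeostatic-like cells C1qa stood at 72.5, 74.5, 72.7 and 76.2 in thalamus sets 1 to 4 and at 79.0, 70.5, 67.2 and 68.8 in HPC sets 1 to 4. In DAM-like cells it stood at 133, 115, 106 and 116 in the thalamus and at 107, 85.6, 79.7 and 99.1 in the HPC. DAM-like cells were higher than homeostatic-like cells in 8 of 8 sets, with a median ratio of 1.45 for C1qa, 1.36 for C1qb and 1.26 for C1qc. These states are clusters of the same cells, so the ratios are a description without a test. The DAM-like cells held 2 clusters. Cluster 5, of 932 cells with a median of 2179.5 UMIs, had the highest C1qa level of the 9 microglial clusters at 181 (SD 22.1, n = 5). Cluster 4, with 1838 cells, had 110, 104, 94.9 and 104 in thalamus sets and 99.1, 81.8, 78.5 and 97.7 in HPC sets. Homeostatic-like cells also held 2 clusters, with a mean C1qa of 65.6 in cluster 0 and 87.0 in cluster 1, against 96.2 in cluster 4. For C1qb cluster 1 had 68.9 against 70.1 in cluster 4, and for C1qc 51.5 against 50.2. Cluster 2, unnamed and led by histone and ribosomal protein genes, was above homeostatic-like cells in 8 of 8 sets with a median C1qa ratio of 1.59.

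C1q was compared between the regions with counts summed per set, by the quasi-likelihood test of edgeR, whose p-values were adjusted after Benjamini and Hochberg across every gene tested. Its p-values measure the spread between the tagged sets. In all microglia-like cells, C1qa stood at 110, 96.2, 86.0 and 97.5 in the thalamus sets and at 101, 76.2, 70.3 and 80.5 in the HPC sets. The ranges overlapped through HPC set 1, the highest of its region. C1qb stood at 77.1, 72.6, 69.0 and 74.8 against 70.3, 58.1, 55.6 and 60.7, and C1qc at 58.2, 51.4, 49.5 and 54.1 against 51.1, 44.3, 41.9 and 45.1. In both, 3 thalamus sets lay above every HPC set. The log2 fold change of thalamus against HPC was 0.32 (SE 0.17, edgeR adjusted p = 0.228) for C1qa, 0.33 (SE 0.13, adjusted p = 0.118) for C1qb and 0.29 (SE 0.12, adjusted p = 0.136) for C1qc. None passed the threshold of 0.05. With the set number as a block all 3 passed (edgeR adjusted p = 0.00778, 0.00513 and 0.00493), as they did without HPC set 1 (adjusted p = 0.0172, 0.00726 and 0.0156). Their size hardly moved with the block, to 0.33, 0.34 and 0.30.

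The estimated regional difference of C1q was larger in DAM-like than in homeostatic-like cells, but the test between the states missed the threshold. In homeostatic-like cells it was 0.06 for C1qa, 0.12 for C1qb and 0.08 for C1qc on the log2 scale, and none passed (edgeR adjusted p = 0.681, 0.197 and 0.421). C1qb passed with the block (adjusted p = 0.0391) and without HPC set 1 (adjusted p = 0.0207). In DAM-like cells it was 0.46 (SE 0.15), 0.47 (SE 0.13) and 0.47 (SE 0.13), with edgeR adjusted p = 0.114, 0.0541 and 0.0637. In DAM-like cells C1qb stood at 90.3, 85.0, 86.0 and 86.3 in thalamus sets against 74.3, 64.7, 66.2 and 67.4 in HPC sets, without overlap, and C1qc at 68.5, 57.8, 58.0 and 61.8 against 53.9, 46.4, 43.8 and 48.1, also without overlap. Of all 9921 genes tested in DAM-like cells, 11.5% did not overlap between the regions. With the block all 3 passed in DAM-like cells (adjusted p = 0.00388, 0.00237 and 0.00162). The test of the difference between states gave 0.42, 0.37 and 0.41 with edgeR adjusted p = 0.0706, 0.0815 and 0.0566, which missed the threshold. Without HPC set 1 it passed for all 3 (adjusted p = 0.0361, 0.0348 and 0.0174), and 4 members passed in all, against 1.58% of all genes. Cluster 5, with its high C1q, made up 27.0% to 47.4% of the DAM-like cells in the thalamus sets, 31.6% in HPC set 1 and 5.94% to 14.2% in HPC sets 2 to 4. The summed level of 15 DAM markers in DAM-like cells was 159 to 373 in thalamus sets and 78.4 to 97.6 in HPC sets. Its part in the C1q differences was not tested. With cells of under 40 Malat1 UMIs per 10000 (Malat1 is a nuclear RNA) left out, the DAM-like difference was 0.25 for C1qa, 0.26 for C1qb and 0.28 for C1qc (edgeR adjusted p = 0.335, 0.189 and 0.181), and the difference between states was 0.22, 0.17 and 0.23 (adjusted p = 0.445, 0.587 and 0.364). This kept 417, 305, 245 and 402 DAM-like cells in thalamus sets and 230, 109, 48 and 95 in HPC sets. Cluster 4 alone held 415, 300, 248 and 402, and 221, 109, 48 and 95. By number, the setting thus came close to leaving out cluster 5.

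C3 and C4b, which carry the cascade forward, were far lower than C1q and were higher in DAM-like than in homeostatic-like cells. C3 encodes the central component whose fragments coat targets, and it lies on chromosome 17 at 57203970 to 57228136. C4b encodes the component cleaved by the proteases of C1, at 34728380 to 34743882 on the same chromosome. Its neighbour C4a is nearly identical in sequence, so reads of the pair may be split or lost in counting and C4b levels are uncertain. In microglia-like cells C4a had 0 UMIs in the thalamus and 4 in the HPC. The stretch before C3 is shown because C3 had the highest ratio of DAM-like to homeostatic-like cells among the members tested. Its capitals mark the C/EBP motif TTGCNNAA, which occurred in 9.56% of all promoters on either strand.
C3, chr17:57228137-57228386, minus strand: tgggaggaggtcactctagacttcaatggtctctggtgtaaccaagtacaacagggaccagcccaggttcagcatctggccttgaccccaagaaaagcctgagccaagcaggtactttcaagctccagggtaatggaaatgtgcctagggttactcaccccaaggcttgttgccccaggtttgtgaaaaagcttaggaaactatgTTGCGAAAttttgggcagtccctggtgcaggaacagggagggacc

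C3 stood at 0.0895, 0.0363, 0.0190 and 0.0174 in homeostatic-like cells of the thalamus sets and at 0.177, 0.0231, 0.0229 and 0.0280 in those of the HPC sets. In DAM-like cells the levels were 0.387, 0.328, 0.138 and 0.207 in thalamus sets and 0.528, 0.492, 0.134 and 0.286 in HPC sets. Every set was higher in its DAM-like cells, by a median ratio of 8.15. The T- or NK-like level ranged from 0 to 0.0785 (mean 0.0381, SD 0.0250, n = 8), so outside thalamus set 1 and HPC set 1 the homeostatic-like level was within that range. It was also within the range of 0 to 0.0592 of T- or NK-like cells without that Gzma-led cluster. Cluster 3, an unnamed microglial cluster led by Aoah, Cxcl13 and Rxrg, had the highest mean at 0.394 (SD 0.154, n = 8). Its median ratio to homeostatic-like cells was 12.9.

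C4b was highest in another cluster. DAM-like cells were above homeostatic-like cells in 8 of 8 sets with a median ratio of 3.90, and cluster 3 with one of 5.75. Cluster 7, of 523 cells led by Cd244a, Ccl12 and C4b itself, had 1.99 UMIs per 10000 (SD 0.599, n = 6) against 0.161 in homeostatic-like cells (SD 0.0649, n = 8). The 6 sets with 20 cells of cluster 7 ranged from 1.18 to 2.63, above every homeostatic-like value. Interferon-like cells, led by Ifit3, Ifit2 and Rsad2, had 0.768 (SD 0.433, n = 8) and were above homeostatic-like cells in 8 of 8 sets. They were also above them in 8 of 8 sets for C3, by a median ratio of 4.90, and for C1qa, by 1.31. The T- or NK-like level of C4b was 0.0809 (SD 0.0504, n = 8), and 0.0249 (SD 0.0191, n = 8) without cluster 9 of all cells. To compare shares of cells, those with at least 3059 UMIs were thinned to that number and the others left out, which took away 14.4% of microglia-like cells in the thalamus and 6.54% in the HPC, and 34.4% and 18.4% of T- or NK-like cells. A C4b UMI was seen in 10.6% of the thinned microglia-like cells of the thalamus and 9.51% of those of the HPC, and a C3 UMI in 4.49% and 4.31%. In T- or NK-like cells these shares were 1.79% and 1.51% for C4b, and 0.862% and 0.607% for C3. Unthinned, the microglial shares were 14.3% and 13.6% for C4b and 7.22% and 6.79% for C3. Over the 64 units of microglial cluster and set, C3 and C4b correlated with Pearson's r = 0.617, while C1qb and C1qc correlated with r = 0.9798. The units share libraries, cells' depth and mice, so these are descriptions.

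**Figure D2:**
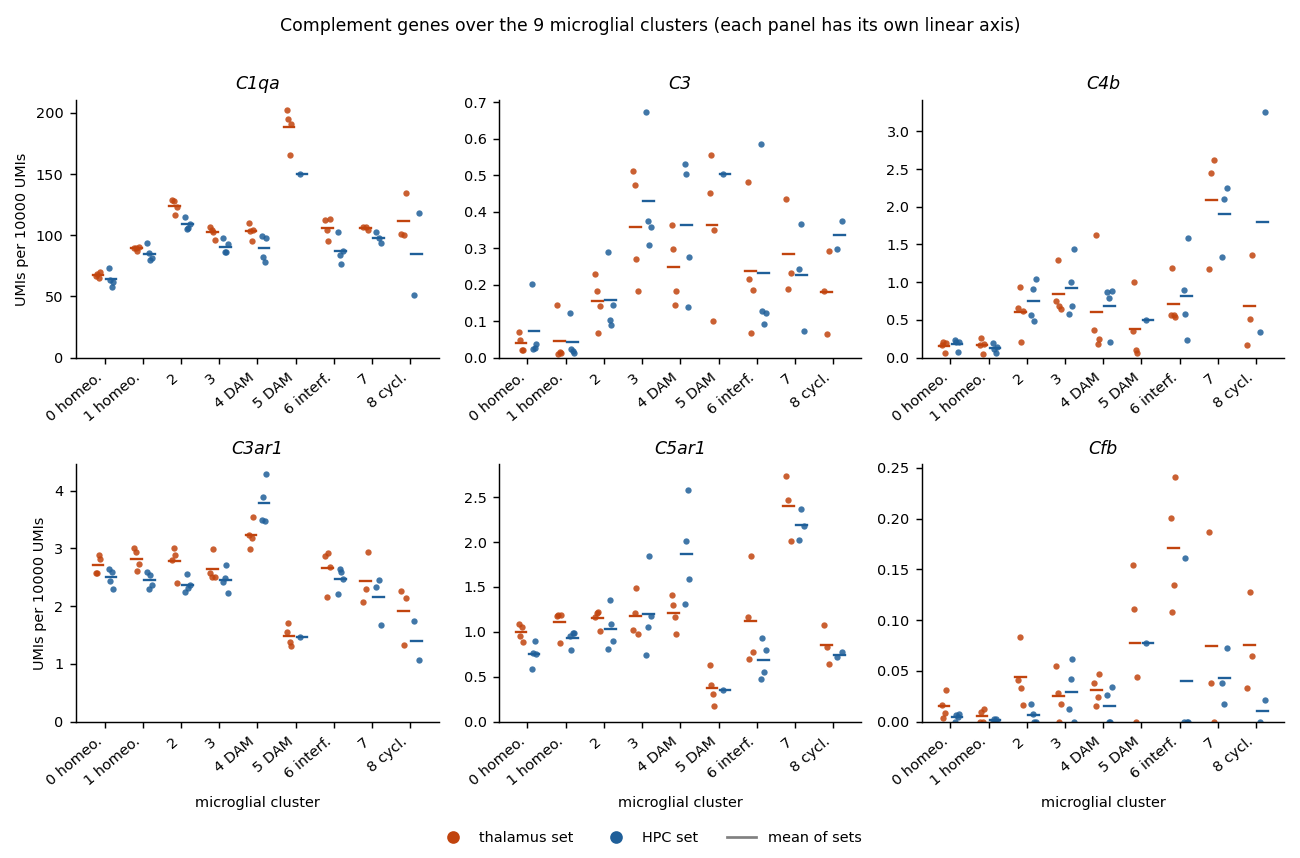
Levels (UMIs per 10000 UMIs, linear axis of its own in each panel) over the 9 microglial clusters, with thalamus sets in orange, HPC sets in blue and lines at their means. C1qa peaked in cluster 5, C3 in clusters 3 to 5, C4b and C5ar1 in cluster 7, C3ar1 in cluster 4 and Cfb in the interferon-like cluster 6, while C3ar1 and C5ar1 were lowest in cluster 5. These are peaks of means, and the Cfb range of cluster 6 reached down to 0 and overlapped that of cluster 5.

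Neither C3 nor C4b passed the test between the regions. In microglia-like cells C3 stood at 0.336, 0.198, 0.0650 and 0.116 in the thalamus and at 0.473, 0.0886, 0.0386 and 0.103 in the HPC. Set 1 was highest in both regions and set 3 lowest. The log2 fold change was 0.02 (SE 0.72, edgeR adjusted p = 0.990), and 1.31 without HPC set 1 (adjusted p = 0.0849). Cluster 3, where C3 was high, made up 39.7% of the microglia-like cells of HPC set 1, 21.2% in thalamus set 1 and 1.52% to 10.4% in the other 6 sets. Its part in the C3 levels was not tested. C4b stood at 0.475, 0.987, 0.161 and 0.360 in the thalamus and at 0.593, 0.396, 0.121 and 0.664 in the HPC. Its log2 fold change was 0.20 (SE 0.55, edgeR adjusted p = 0.834). Cluster 7 made up 8.62% of microglia-like cells in thalamus set 2, the set with the highest C4b, and 0.576% to 3.63% in the others. In DAM-like cells neither gene passed (log2 fold changes of −0.53 and −0.35, edgeR adjusted p = 0.415 and 0.803). Without thalamus set 2 the DAM-like fold change of C4b was −1.42 (adjusted p = 0.00312) and the difference between states −1.15 (adjusted p = 0.00997).

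Outside microglia, C3 was carried by neutrophils and macrophages. Neutrophil-like cells had 1.42 UMIs per 10000 (SD 0.409, n = 6) and macrophage- or monocyte-like cells 0.879 (SD 0.475, n = 7), against 0.177 in microglia-like cells (SD 0.152, n = 8). The neutrophil and macrophage ranges overlapped. Because microglia were most of the cells, they still held 71.0% of all 2667 C3 UMIs, with 13.9% in macrophage- or monocyte-like and 10.0% in neutrophil-like cells. Microglia-like cells held 92.6% of the 4788 C4b UMIs.

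Cfb, the gene of factor B of the alternative pathway, had most of its UMIs outside microglia only when HPC set 1 was counted. It lies at 34856374 to 34862518 of chromosome 17, 85 bases from its neighbour C2. Of 554 Cfb UMIs, 57.8% lay in macrophage- or monocyte-like cells and 37.9% in microglia-like cells. Without HPC set 1 the shares turned, to 24.9% and 69.1% of 265 UMIs. Among macrophage- or monocyte-like cells the level was 0.184, 0.429, 0.404 and 0.181 in the thalamus sets and 2.52, 0.453 and 0 in HPC sets 1 to 3, with 18 cells in set 4, too few to count. HPC set 1 held 254 Cfb UMIs in 40 of its 130 macrophage- or monocyte-like cells, and the most in a single cell was 34. The log2 fold change was −2.22 (SE 0.66, edgeR adjusted p = 0.9997) with that set and −0.15 (adjusted p = 0.997) without it.

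In microglia-like cells Cfb was rare but higher in the thalamus. The level was 0.0590, 0.0257, 0.0171 and 0.04 in the thalamus sets, from 71, 22, 15 and 47 UMIs. It was 0.0150, 0.0109, 0.0044 and 0.0070 in the HPC sets, from 27, 17, 4 and 7 UMIs. All thalamus sets lay above all HPC sets. Of all 12984 genes tested in microglia-like cells, 20.9% did not overlap between the regions, in either direction. The log2 fold change was 1.91 (SE 0.45, edgeR adjusted p = 0.0235). The call was lost without thalamus set 1 (adjusted p = 0.0645), thalamus set 4 (0.0652) or HPC sets 2, 3 or 4 (0.0711, 0.0523 and 0.0679), with fold changes from 1.53 to 1.95. T- or NK-like cells held 12 Cfb UMIs in all, 10 of them in the thalamus, a mean level of 0.0125 in the thalamus and 0.0040 in the HPC. Cluster 9 of all cells held 9 of the 12. The T- or NK-like level was thus also higher in the thalamus, and its part in the microglial difference was not tested. The summed level of 14 macrophage or monocyte markers in microglia-like cells was 0.512 to 0.703 in thalamus sets and 0.262 to 0.665 in HPC sets, with 11 of the 14 higher in the thalamus on average. That of 14 interferon markers was 7.11 to 13.1 and 4.47 to 8.18, with 14 of 14 higher in the thalamus. Their part in the result was not tested either. On average Cfb was highest in the interferon-like cluster (0.106, SD 0.0963, n = 8), at 0.201, 0.108, 0.134 and 0.241 in the thalamus sets and 0, 0.161, 0 and 0 in the HPC sets. The sets held only 36 to 99 interferon-like cells each. Their range overlapped that of microglial cluster 5, the next highest with a mean of 0.0773.

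The anaphylatoxin receptors C3ar1 and C5ar1 followed other patterns than the genes that feed them. C3ar1 encodes the receptor of C3a and lies on chromosome 6 at 122847138 to 122856161. C5ar1 encodes the receptor of C5a and lies on chromosome 7 at 16246743 to 16259540, 2588 bases from C5ar2, which encodes a related receptor. Before C3ar1, capitals mark the AP-1 motif TGANTCA, found in 6.75% of all promoters. Its sequence is shown because C3ar1 passed the test between regions and was the only 1 of the 5 genes with this motif.
C3ar1, chr6:122856162-122856407, minus strand: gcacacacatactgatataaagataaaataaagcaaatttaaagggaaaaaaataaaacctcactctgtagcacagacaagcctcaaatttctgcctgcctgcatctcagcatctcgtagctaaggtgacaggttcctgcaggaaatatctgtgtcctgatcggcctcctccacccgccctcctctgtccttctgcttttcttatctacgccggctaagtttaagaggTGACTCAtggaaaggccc
The interferon-stimulated response element and the gamma-activated site TTCNNNGAA were in none of the 5 promoters, against 2.98% and 7.02% of all promoters.

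C3ar1 was at nearly the same level in microglia-like cells (2.61, SD 0.165, n = 8) and macrophage- or monocyte-like cells (2.54, SD 0.487, n = 7), whose ranges overlapped. The T- or NK-like level was 0.393 (SD 0.117, n = 8), and 0.114 (SD 0.0424, n = 8) without cluster 9 of all cells. Among cells thinned to 3059 UMIs, a C3ar1 UMI was seen in 52.1% of microglia-like cells of the thalamus sets (SD 1.10, n = 4) and 48.4% of those of the HPC sets (SD 0.967, n = 4). It was seen in 7.63% and 6.69% of T- or NK-like cells. Cluster 5, with the least C3ar1, lost 77.2% of its 800 thalamus cells and 81.8% of its 132 HPC cells to the depth limit. Unthinned, the microglial shares were 63.1% and 61.7% and the T- or NK-like shares 9.31% and 10.8%, at a median of 4730 UMIs per cell against 3731 in T- or NK-like cells.

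C5ar1 was highest in neutrophils. Neutrophil-like cells had 5.23 UMIs per 10000 (SD 1.27, n = 6), from 3.04 to 6.46 over the sets, above every value of the other classes. Unthinned, 56.5% of the neutrophil-like cells of the thalamus and 55.0% of those of the HPC had a C5ar1 UMI, at a median of 1952 UMIs per cell. Macrophage- or monocyte-like cells had 1.06 (n = 7), microglia-like cells 1.02 (n = 8) and T- or NK-like cells 0.138 (n = 8). In thinned microglia-like cells the share with a C5ar1 UMI was 23.3% in the thalamus (SD 2.54, n = 4) and 19.5% in the HPC (SD 1.25, n = 4), against 30.5% and 26.2% unthinned and 2.24% and 2.72% in thinned T- or NK-like cells. Cluster 7, the microglial cluster with the most C4b, also had the most C5ar1 at 2.30 (SD 0.282, n = 6), with a median of 2.54 times the homeostatic-like level. Cluster 5 had the least of both receptors, 0.372 for C5ar1 and 1.49 for C3ar1 (n = 5), while its C1qa was the highest. Of the 64 microglial units, C3ar1 and C5ar1 correlated with Pearson's r = 0.553, and C1qa correlated with C3ar1 at r = −0.39.

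Both receptors were higher in thalamic than in HPC microglia-like cells. C3ar1 stood at 2.67, 2.68, 2.81 and 2.82 in the thalamus and at 2.46, 2.48, 2.59 and 2.37 in the HPC, without overlap. The same held for 20.9% of all genes tested, in either direction. C5ar1 stood at 1.19, 1.23, 1.07 and 0.945 in the thalamus and at 0.843, 0.955, 1.01 and 0.924 in the HPC, where thalamus set 4 fell within the HPC range. The log2 fold changes were 0.22 for C3ar1 (SE 0.05, edgeR adjusted p = 0.0168) and 0.32 for C5ar1 (SE 0.08, adjusted p = 0.0333). With Cfb, 3 of the 8 members tested rose in the thalamus and 0 fell, while over all 12984 genes 12.9% were called in either direction. The median log2 fold change was 0.31 over the 8 members and −0.01 over all genes. With the block 6 of 8 were called, against 29.9% of all genes, and without HPC set 1 also 6, against 23.2%. Without HPC set 2 or HPC set 4 the count was 0, and without thalamus set 1 or thalamus set 4 it was 1. No shares over all genes are given for these fits, so their counts say nothing particular to the members. Serping1 was not tested for want of counts.

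The region with the higher C5ar1 level was the thalamus in homeostatic-like cells and the HPC in DAM-like cells. In homeostatic-like cells C5ar1 stood at 1.11, 1.02, 0.992 and 0.981 in the thalamus and at 0.7001, 0.775, 0.936 and 0.836 in the HPC, without overlap. Of all 11768 genes tested in homeostatic-like cells, 11.9% did not overlap between the regions. In DAM-like cells it stood at 1.21, 1.19, 1.03 and 0.867 in the thalamus and at 1.17, 1.91, 2.47 and 1.55 in the HPC. The median ratio of DAM-like to homeostatic-like cells was 2.16 in the HPC sets and 1.06 in the thalamus sets. Between regions the log2 fold change was 0.32 in homeostatic-like cells (SE 0.07, edgeR adjusted p = 0.0172) and −0.52 in DAM-like cells (SE 0.16, adjusted p = 0.0986). With the block the latter was −0.49 (adjusted p = 0.0261). The summed level of 15 genes that tissue handling induces, among them Fos, Jun and Egr1, was 74.2 to 86.8 in homeostatic-like cells of the thalamus and 53.8 to 61.7 in those of the HPC, with 15 of 15 higher in the thalamus. In DAM-like cells it was 31.3 to 41.1 and 32.8 to 43.4, with 8 of 15 higher. Its part in these results was not tested. DAM markers, 15 in number, summed to 159 to 373 in DAM-like cells of thalamus sets and 78.4 to 97.6 in those of HPC sets. All 15 were higher in the thalamus on average, and their part was not tested either. The test of the difference of the region effect between states gave −0.90 (SE 0.14, edgeR adjusted p = 0.0002675). C5ar1 was the only 1 of the 7 members tested that passed, against 1.23% of all 11291 genes. It passed in all 12 alternatives run for this test, with −0.99 to −0.80 and adjusted p from 2.78e-07 to 0.00691. These were other size factors, DESeq2, no low-count filter, Malat1-poor cells left out and each set left out. The test was not rerun with other clusterings, the per-cell marker gate, other cell filters or equal cell numbers. In DAM-like cells the C5ar1 level of thalamus sets was 1.41, 1.29, 1.16 and 0.98 within cluster 4 alone, and that of HPC sets 1.32, 2.01, 2.57 and 1.59. With cells of under 40 Malat1 UMIs per 10000 left out of both states, the difference was −0.88 (adjusted p = 0.0001754). The DAM-like cells of HPC sets 2 to 4 numbered 127, 54 and 101, against 369 to 789 in the thalamus sets.

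C3ar1 leaned the same way without passing. DAM-like cells had 2.81, 2.83, 2.91 and 3.23 in thalamus sets and 3.20, 3.76, 3.37 and 4.18 in HPC sets, and the test of the difference between states gave −0.32 (SE 0.12, edgeR adjusted p = 0.221). In homeostatic-like cells the regional log2 fold change was 0.16 (adjusted p = 0.104, and 0.0184 with the block). Of the 7 members tested in homeostatic-like cells 1 was called, against 5.3% of all 11768 genes, and with the block 3, against 10.8%. Without HPC set 1 the count was 3, against 7.61%, and without thalamus set 1 or HPC set 2 it was 0, with no share over all genes given for the latter. In DAM-like cells 0 of 7 were called by edgeR, against 3.08% of all 9921 genes. An unadjusted p under 0.05 was found for 4 members and for 1724 of the 9921 genes. DESeq2 called 3 members, with no share over all genes given beside it. With the block 4 were called, against 7.86%, of which C1qa, C1qb and C1qc rose in the thalamus and C5ar1 fell. Without HPC set 1 the count was 4, against 4.05%, and without thalamus set 2 it was 3, with no share given for the latter.

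**Figure D3:**
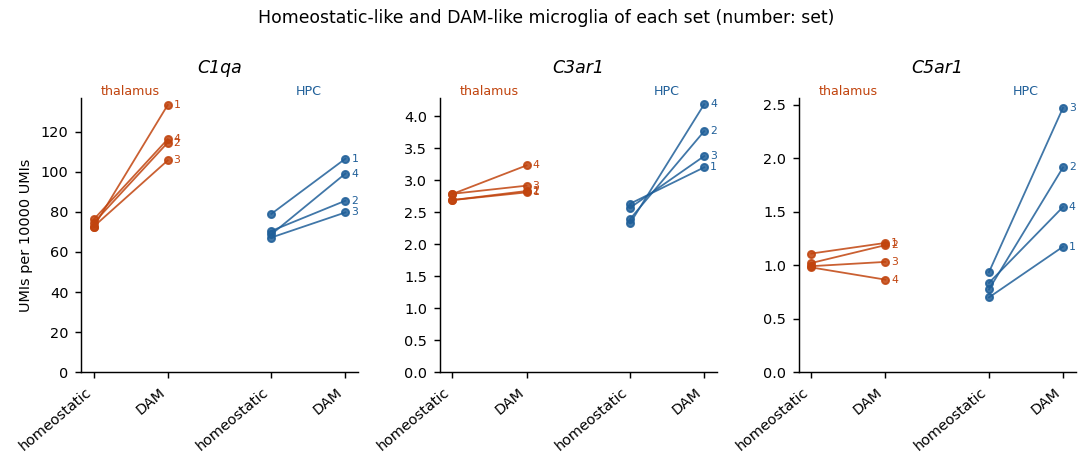
Levels of C1qa, C3ar1 and C5ar1 (UMIs per 10000 UMIs) in homeostatic-like and DAM-like microglia, with a line joining the 2 states of each set (thalamus in orange, HPC in blue, set number beside the DAM-like point). C5ar1 was higher in DAM-like cells in all 4 HPC sets, whereas the thalamus sets stayed between 0.867 and 1.21.

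**Figure D4:**
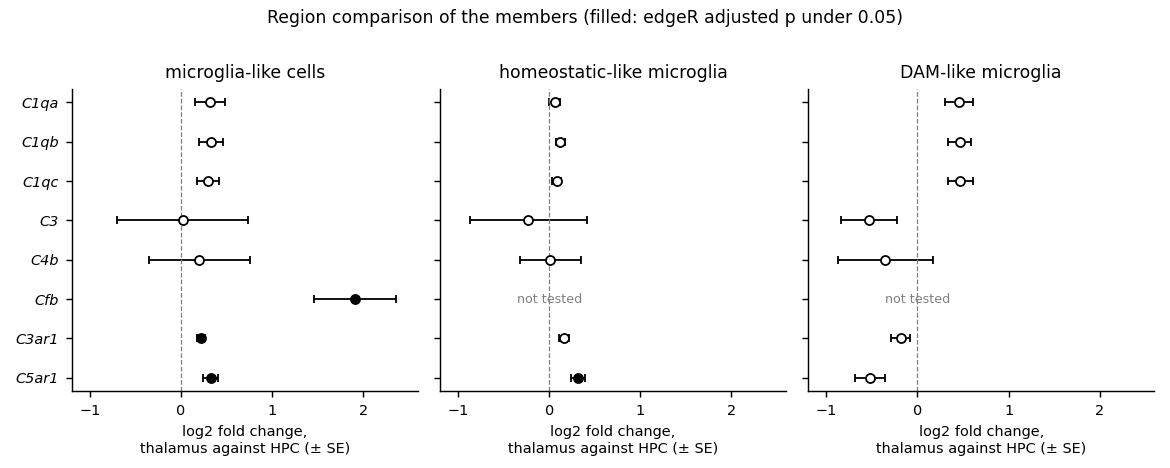
Log2 fold changes of thalamus against HPC for 8 members in 3 groups of microglia, with bars of 1 SE and filled points where the edgeR adjusted p was under 0.05. C3ar1, C5ar1 and Cfb passed in microglia-like cells and C5ar1 in homeostatic-like cells, while the C1q genes lay further to the right in DAM-like than in homeostatic-like cells.

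Outside microglia, macrophage- or monocyte-like and T- or NK-like cells were tested, and no member passed between the regions in the reported test. Neutrophil-like cells were not tested. In macrophage- or monocyte-like cells 0 of 7 were called by edgeR, against 0.0158% of all 6343 genes. An unadjusted p under 0.05 was found for 1 member and for 234 of all genes. With no low-count filter 1 member was called, with no share over all genes given beside it. In T- or NK-like cells 0 of 6 were called, against 0.0697% of all 10046 genes. There 0 members and 620 of all genes had an unadjusted p under 0.05. With the block 0 T- or NK-like calls fell on members, against 0.906% of all genes, and without HPC set 1 also 0, against 0.0205%. DESeq2 called 0 in either class. The per-cell marker gate did call members in T- or NK-like cells, with no share over all genes given beside them.

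Serping1, which encodes the inhibitor of the C1 proteases, was hardly detected. It lies on chromosome 2 at 84765387 to 84775444. In all kept cells it had 16 UMIs, of which 13 were in microglia-like cells, and no level can be compared between regions at this depth.

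Of 46 other complement genes fixed as a list, 17 could be tested in microglia-like cells, where 4 rose in the thalamus, 1 fell and 12 did not pass, against 12.9% of all genes called. Their median log2 fold change was 0.12, against −0.01 over all genes. Masp1, which encodes a protease of the lectin pathway, stood at 0.177, 0.131, 0.157 and 0.157 UMIs per 10000 in the thalamus and at 0.0383, 0.0449, 0.0474 and 0.0781 in the HPC (log2 fold change 1.68, SE 0.20, edgeR adjusted p = 0.00147). Colec12, a scavenger receptor with a collectin domain, rose by 2.76 (SE 0.41, adjusted p = 0.00379), and its levels of 0.285 to 0.512 in the thalamus lay above 0.0132 to 0.0995 in the HPC. Ranges without overlap were found for 20.9% of all genes tested. However, Colec12 led the genes of the DAM-like cluster 4 and was too low to test in homeostatic-like cells. Itgax, a chain of complement receptor 4, rose by 1.98 (SE 0.27, adjusted p = 0.00278), but it was among the markers that named DAM-like cells. C1qbp, a protein that binds C1q, rose by 0.26 (SE 0.07, adjusted p = 0.0405). C5ar2, the neighbour of C5ar1, was lower in the thalamus at 0.232 to 0.315 against 0.294 to 0.428 in the HPC (log2 fold change −0.47, SE 0.11, adjusted p = 0.0264).

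Itgam, a chain of complement receptor 3, was among those that did not pass. Its log2 fold change was −0.15 (SE 0.10, edgeR adjusted p = 0.323). In DAM-like cells 13 of the 46 were tested, of which Itgax (0.88, edgeR adjusted p = 0.00801) and Masp1 (0.89, adjusted p = 0.0424) rose and the other 11 did not pass, against 3.08% of all genes called. In homeostatic-like cells Masp1 (1.25, adjusted p = 0.00373) and Itgax (0.95, adjusted p = 0.0345) were the 2 of 12 that rose, against 5.3% of all genes called. The summed level of the DAM markers, 15 of which were higher on average in the thalamus, was 64.6 to 172 UMIs per 10000 in thalamic microglia-like cells and 22.4 to 34.0 in those of the HPC. Its part in these results was not tested.

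**Figure D5:**
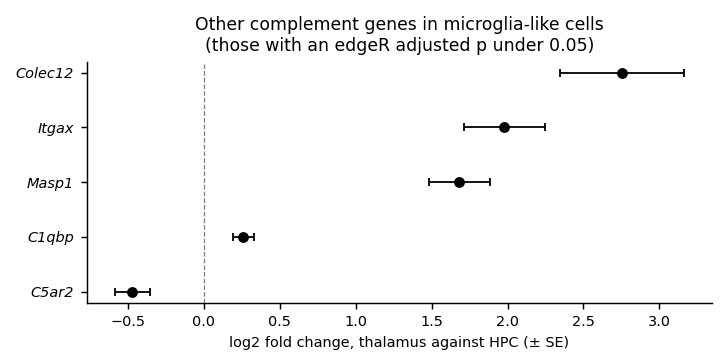
Log2 fold changes of thalamus against HPC in microglia-like cells, with bars of 1 SE, for the 5 other complement genes whose edgeR adjusted p was under 0.05. Colec12, Itgax and Masp1 lie far to the right of C1qbp, and C5ar2 is the 1 point to the left of 0.

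Genes whose levels most resembled a member were found by Pearson's r of log2(CPM + 1) over units of cell class or microglial cluster and set, as a description. The units share libraries, mice and depth. Over 91 units of all classes, the genes nearest to C1qa were C1qc (r = 0.996), C1qb (0.994) and Trem2 (0.979), which encodes a microglial surface receptor. C5ar1 lay nearest to Csf3r (0.859), a receptor abundant in neutrophils, C3 to Pla2g7 (0.806) and C4b to Ccl12 (0.792). Cfb resembled no gene closely, with Siglec1, a macrophage lectin, at 0.564. Over the 64 microglial units alone, C3 lay nearest to Aoah (0.8287) and Apoe (0.813), C4b to Cd300lf (0.794), C3ar1 to Nek6 (0.777), C5ar1 to Gnl3 (0.795) and Cfb to Lgals3bp (0.612). Aoah and C4b were themselves among the leading genes of clusters 3 and 7.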

How the data were processed

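CD45+ cells of the thalamus and HPC were measured by single-cell RNA sequencing (10x Genomics Single Cell 3′, v3.1). The authors deposited raw UMI counts per gene and cell, made with Cell Ranger 7.1.0 per the file headers (the methods of the study name another version) on mm10. Whether intron reads were counted was not given in the sources used here. Positions came from GENCODE M21 (GRCm38).

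Cells with 200 to 7500 genes and at most 2% mitochondrial counts were kept, 24939 of 29190. Multiplexing oligos (14.6% of UMIs) were left out of all totals. Seurat 5.3.0 (R 4.3.3) integrated the regions over 30 dimensions with 2000 variable genes, none of them a member, and Louvain clustering at resolution 0.5 followed, again for microglia-like cells. Clusters were named from fixed marker lists, with at least 3 markers detected, a share of at least 0.3 of the list. A rebuilt name may differ from the study's. No doublets were removed, and clusters with high doublet scores stayed unnamed.

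Counts were summed per set (at least 20 cells) and tested with edgeR 4.0.16 (TMM, filterByExpr, quasi-likelihood F-test, Benjamini-Hochberg over all genes tested, threshold 0.05). The study tested single cells, but cells are not replicates. The region effects of DAM-like and homeostatic-like sums were compared by an interaction term, the set being a block. On simulated counts, 78% of 2-fold and 96% of 4-fold changes were recovered for the 12984 genes of microglia-like cells, and 80% and 96% for the 9921 genes of DAM-like cells. In macrophage- or monocyte-like cells 35% and 90% were recovered. Of the calls, 5.95% were false in microglia-like, 9.09% in homeostatic-like and 6.38% in DAM-like cells. Changes under 2-fold were not simulated.

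Sets of the regions share the numbers 1 to 4 in their file names only. Deviations from the region means correlated by 0.146 to 0.560 between sets of the same number, and each thalamus set correlated best with its own number. In the other direction the match was incomplete. HPC set 2 correlated by 0.174 with thalamus set 3 and by 0.146 with thalamus set 2. The reported region fits were unpaired, and the set number was a block in an alternative only. The source of that pairing is the data and not the labels.

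Alternatives covered size factors, DESeq2 1.42.0, filters, clustering, doublet scores, cells with under 40 Malat1 UMIs per 10000, a per-cell marker gate, equal cell numbers and leaving out each set. Shares of UMIs without HPC set 1 and T- or NK-like levels without cluster 9 were added after the data were seen. Shares of cells were taken after thinning to 3059 UMIs. Named were all members and the genes of the complement list called in microglia-like or DAM-like cells, with Itgam added after its values were seen, and for the members genes with the highest correlation among those with a level of at least 20 in CPM in a unit. The members and lists were chosen with earlier results of these data known. Some results that these rules would name are not reported here.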

Additional observations from a re-analysis of the deposited data

Results flagged for a closer look

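In 63 groups of 4 sets tested for a set far from the others, 3 were marked, and chance marks about 1 in 20. C3 in microglia-like cells was 0.473 UMIs per 10000 in HPC set 1, against 0.0386 to 0.103 in the other HPC sets. In homeostatic-like cells C3 was 0.177 in the same set, against 0.0229 to 0.0280. C4b in DAM-like cells was 1.55 in thalamus set 2, against 0.169 to 0.361 in the other thalamus sets.

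The region effect of C5ar1 differed between DAM-like and homeostatic-like microglia by −0.90 on the log2 scale (edgeR adjusted p = 0.0002675).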

How the results depend on the processing

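Counts of members called moved with single sets, with the set number as a replicate block, with DESeq2 and with the low-count filter. With the block, 6 members were called in microglia-like cells in place of 3, 3 in homeostatic-like in place of 1 and 4 in DAM-like in place of 0, and over all genes 3885 in place of 1677, 1267 in place of 624 and 780 in place of 306. The block changed no other call of a member. Leaving out each set gave 0 to 6, 0 to 3 and 0 to 4 members in these groups, and 1 to 4 for the difference between states. DESeq2 called 5 in microglia-like cells, 3 in DAM-like cells and 4 for the difference between states. No low-count filter gave 4 in DAM-like cells, 4 for the difference between states and 1 in macrophage- or monocyte-like cells. The per-cell marker gate gave 0 in homeostatic-like cells and 2 in T- or NK-like cells. Where no count over all genes is given beside it, a count of members says nothing particular to the members. Over all genes, T- or NK-like calls went from 7 to 91 with the block, homeostatic-like calls to 148 with the gate and 1028 without the filter, and DAM-like calls to 691 without it, 44 at resolution 1 and 79 with equal cell numbers. The cause was not tested.

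Direction turned for effects that had missed the threshold in the reported test. C3 in microglia-like cells was −0.0049 without high doublet scores, −0.0805 without Malat1-poor cells and −0.0073 with the gate, and −0.53 to 1.31 when sets were left out. C4b in homeostatic-like cells was −0.0337 with DESeq2, −0.0067 without a filter, −0.11 at 5% mitochondrial counts, −0.27 without integration, −0.81 at resolution 1, −0.45 with the gate and −0.29 to 0.36 when sets were left out. In homeostatic-like cells C1qa was −0.0046 without integration and −0.0782 with the gate, C1qb −0.0136 and C1qc −0.0073 with the gate, and C3 −0.78 to 0.49 when sets were left out. C4b in microglia-like cells ranged from −0.34 to 0.49. For the difference between states C3 was −0.0891 without Malat1-poor cells and −0.79 to 0.81, and C4b −1.15 to 0.0918, when sets were left out. The share of thalamus microglia-like cells with a C3ar1 UMI was 63.1% unthinned. Depth limits Cfb and Serping1 most.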
